A study of Mus musculus with 12 samples.

Results

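A set of 38 genes that mark macrophages, monocytes and the leukocytes they belong to was followed in mouse aortas after elastase infusion, out of 24341 gene symbols in the count table. The genes were taken by symbol from a list of markers. They comprise markers of resident macrophages (Lyve1, Folr2, Cd163 and Mrc1), of recruited monocytes (Ccr2 and Ly6c2) and of the myeloid lineage at large. Total RNA came from aortas of 12 male C57BL/6J mice aged 10 weeks at the experiment, in 3 groups of 4. Mice of the saline group, titled Sham, had saline infused into the infrarenal aortic segment, and their aortas were taken at day 7. Those of both other groups had porcine pancreatic elastase (PPE), which digests elastic fibres and makes the segment dilate, infused at the same site. For PPE week 1 the harvest was on day 7, and for PPE week 2 on day 14. No saline aorta was taken at day 14, so that time and treatment cannot be told apart at PPE week 2. The tissue is bulk aorta, in which more cells of a type and more RNA per cell cannot be told apart. Defining genes of smooth muscle were present in every library, with Acta2 (smooth muscle actin) at 1167 to 6998 CPM (the count of a gene relative to the TMM-scaled library size) and Cnn1 (calponin) at 40.1 to 402 CPM.

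Macrophages of the artery wall come from 2 sources. Resident macrophages settle in the adventitia early in life, renew themselves there and carry endocytic receptors such as the mannose receptor (Mrc1) and the hyaluronan receptor (Lyve1). Recruited ones derive from blood monocytes that leave the marrow through the chemokine receptor Ccr2 and carry Ly6C at their surface. Both depend on the growth factor receptor Csf1r and on the transcription factor PU.1 (Spi1). Infiltrating macrophages are a known feature of elastase-induced and human aneurysms, where they clear debris and release matrix-degrading enzymes and cytokines.

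Of the 38 genes, 32 had enough counts to be tested. Each of the 25 genes listed under a single RefSeq accession was tested, against 7 of the 13 listed under several. The untested 6 all had several accessions. Itgam, the integrin chain of Mac-1, and Folr2, a folate receptor, had no count in any library. Over all accessions and the 12 libraries, Cd163, a scavenger receptor for haemoglobin, had 10 counts, the lipid receptor gene Trem2 had 13, the oxidase subunit gene Ncf1 had 23 and Ms4a7 had 43. Whether reads shared between isoforms were left out by the authors' counting was not tested here, so that a count of 0 says nothing about the expression of these genes. Of the resident markers only Mrc1 and Lyve1 could therefore be followed. Among the 32 tested genes, 30 would have passed the low-count filter on the saline libraries alone. The total count per library was 8343313 to 12269131. Ribosomal RNA precursor made up 36.2 to 49.9% of the counts in saline, 21.00 to 34.6% in PPE week 1 and 19.5 to 22.1% in PPE week 2 libraries, and so moved with the groups. Levels listed for a group are in the order of replicates 1 to 4.

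The first comparison, PPE week 1 against saline at the same day, asks which of the genes differ 1 week after elastase. Genes of macrophages and of leukocytes at large were higher, among them Cd68 by 2.79-fold, Spi1 by 4.82-fold, Ptprc by 3.68-fold and Ly6c2 by 7.78-fold. In edgeR's quasi-likelihood test with Benjamini-Hochberg adjustment over all 12756 accessions, with an adjusted p under 0.05 as the threshold, 11 of the 32 genes rose and 0 fell. The background was 3.98% of all accessions called higher and 3.91% called lower. Without adjustment, p was under 0.05 for 26 higher genes and for 1 lower gene, Gpnmb. The share of all accessions under that unadjusted cut is not given, here or in the other comparisons, so such counts have no background beside them. DESeq2 called 23 higher, where 7.58% of its accessions were, and 0 lower. Limma-voom called 9 and 0, where 3.37% of accessions were higher. In 27 of the 32 genes all 4 PPE week 1 libraries lay above all 4 saline libraries, against 12.1% of all accessions. The median log2 fold change of the 32 was 1.34, and that of all accessions was 0.00271. A call of a single gene depended on which libraries were in the fit. Only 2 were called when saline replicate 4 or replicate 2 of PPE week 1 was dropped, and 5 when saline replicate 3 was. Dropping saline replicate 1 gave 6, and dropping saline replicate 2, or replicate 1 or 4 of PPE week 1, gave 7. Dropping a PPE week 2 library gave 19 (replicate 1 or 3), 17 (replicate 4) and 13 (replicate 2). The share of all accessions called higher moved too, from 1.17% without replicate 2 of PPE week 1 to 5.92% without replicate 1 of PPE week 2. Cd68 and Laptm5 were called in each of the 12 leave-outs. With the share of ribosomal RNA precursor as a covariate the number was 1, Cd68, and the share over all accessions 0.180% (82 called in either direction, against 1007 without it), while the median log2 fold change was 1.25.

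**Figure D1:**
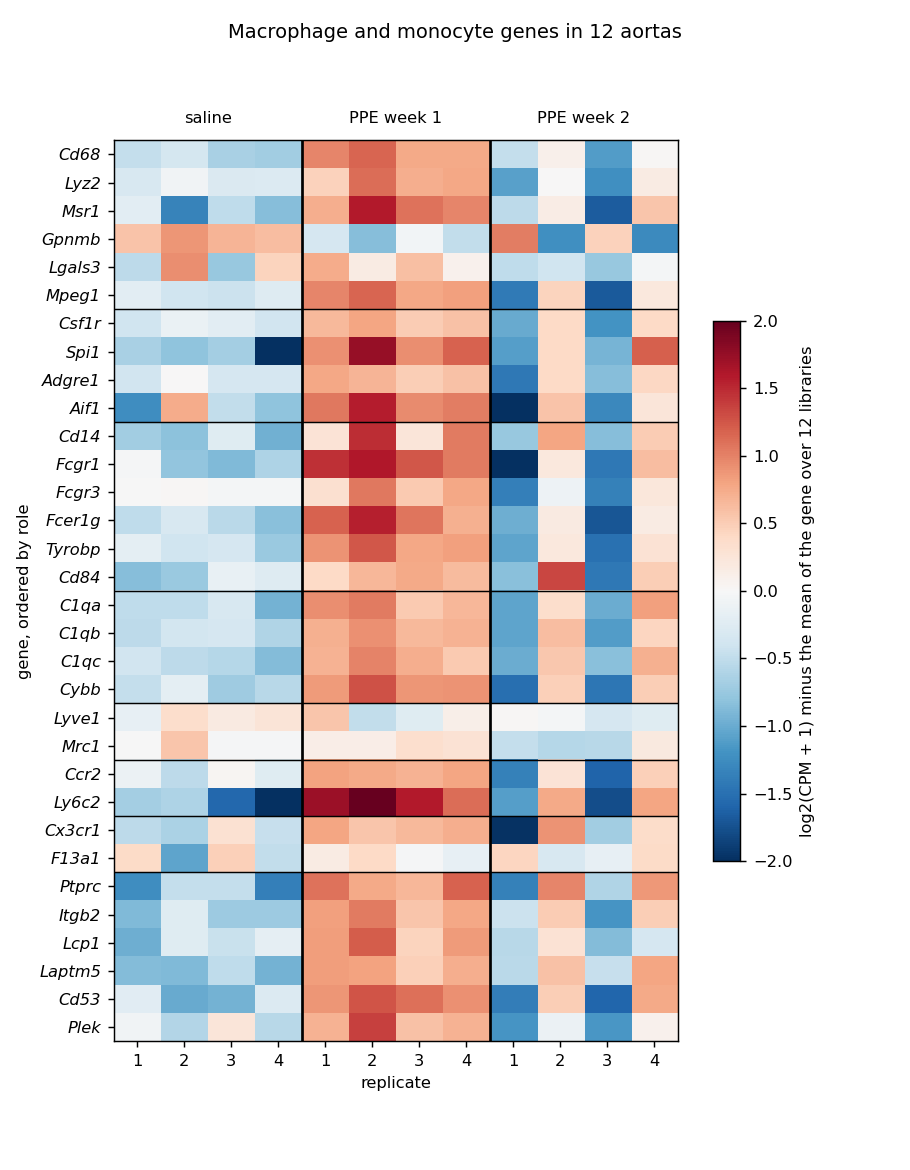
Heat map of the 32 tested genes (rows, ordered by role) in the 12 libraries (columns, replicates 1 to 4 of each group), coloured by log2(CPM + 1) minus the mean of the gene over all libraries, capped at 2 either way. All 4 PPE week 1 libraries are red in most genes, with Gpnmb, Lyve1 and F13a1 as exceptions, while PPE week 2 replicates 1 and 3 are mostly blue and replicates 2 and 4 mostly pale red.

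Genes of the macrophage lysosome and of scavenging were called in 2 of 6 tested cases. Cd68, a lysosomal membrane protein of macrophages, lay at 44.7, 48.9, 39.5 and 38.3 CPM in the saline libraries, 124.8, 141, 107 and 106 CPM in those of PPE week 1 and 44.7, 67.5, 28.5 and 63.5 CPM in those of PPE week 2. No PPE week 1 library overlapped saline or PPE week 2. Its mean was 119.7 ± 16.6 CPM at PPE week 1 and 42.8 ± 4.90 CPM in saline (mean ± SD, n = 4 each, edgeR log2 fold change 1.48 ± 0.23 SE, adjusted p = 0.00156). The accession is NM_001291058, in a gene at chromosome 11, 69664213 to 69666170 (GRCm38.p6).

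Msr1, a scavenger receptor that takes up modified lipoproteins, had 10.6, 4.32, 8.49 and 6.47 CPM in the saline libraries, 21.4, 39.4, 27.7 and 25.6 CPM in those of PPE week 1 and 8.39, 13.9, 3.24 and 18.8 CPM in those of PPE week 2. Every PPE week 1 library lay above the other 8. The rise was 3.79-fold (edgeR log2 fold change 1.92 ± 0.44 SE, adjusted p = 0.0143), and it lost its call without saline replicate 4 or PPE week 1 replicate 2. Lyz2, the lysozyme of myeloid cells, was at 909, 1075, 923 and 935 CPM in the saline libraries, 1563, 2462, 1869 and 1924 CPM in those of PPE week 1 and 529, 1141, 484 and 1265 CPM in those of PPE week 2. Its groups did not overlap at PPE week 1, but it missed the threshold there (edgeR log2 fold change 1.03 ± 0.29 SE, adjusted p = 0.0512). Its reads may be shared with the close copy Lyz1. Mpeg1, a pore-forming protein of macrophages, likewise did not overlap (log2 fold change 1.27 ± 0.42 SE, adjusted p = 0.0966). Lgals3, which encodes galectin-3, had at most 21 counts in a library and did not pass (edgeR log2 fold change 0.47 ± 1.32 SE, adjusted p = 0.899).

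Gpnmb, a membrane glycoprotein of lysosomal compartments often used as a marker of lipid-laden macrophages, ran the other way. It is described here after its values were seen. Its levels were 319.6, 398, 346 and 328 CPM in the saline libraries, 169.9, 119, 206 and 152 CPM in those of PPE week 1 and 437, 90.9, 296 and 88.4 CPM in those of PPE week 2. All PPE week 1 libraries lay below all saline libraries, the only one of the 32 genes with that order. How often that order occurs over all accessions is not given, so it does not set Gpnmb apart from them. Gpnmb did not pass the test with all 12 libraries (edgeR log2 fold change -1.11 ± 0.47 SE, adjusted p = 0.194), but was called lower when only the 8 libraries of the comparison were fitted.

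**Figure D2:**
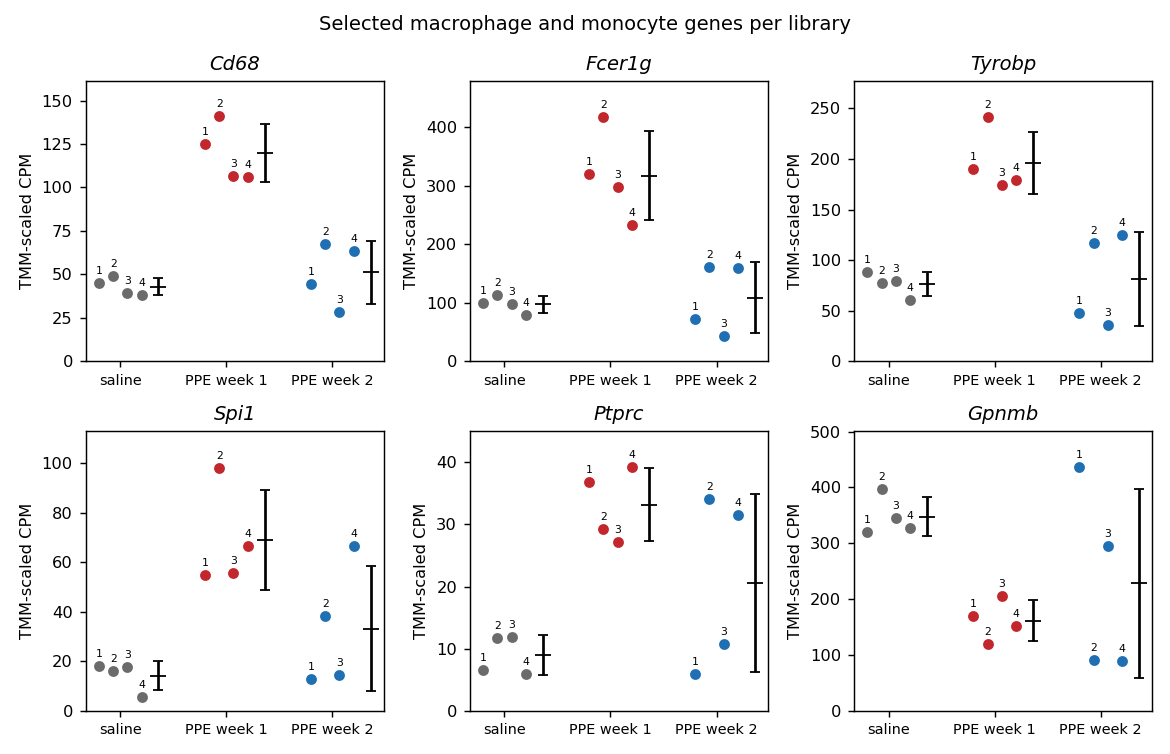
TMM-scaled CPM (vertical axes, from 0) of Cd68, Fcer1g, Tyrobp, Spi1, Ptprc and Gpnmb in each library, with replicate numbers beside the points and the mean ± SD (n = 4) to the right of each group. In 5 genes PPE week 1 stands above saline without overlap, in Gpnmb below it, and PPE week 2 is split.

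Among genes of the lineage, 1 of 4 tested passed. Spi1, which encodes PU.1, was at 18.02, 15.9, 17.6 and 5.44 CPM in the saline libraries, 55.1, 98.3, 55.9 and 66.6 CPM in those of PPE week 1 and 12.9, 38.4, 14.5 and 66.8 CPM in those of PPE week 2. Saline and PPE week 1 did not overlap, while PPE week 2 replicate 4 reached into the range of PPE week 1. The level was 4.82-fold higher at PPE week 1, 68.96 ± 20.3 against 14.3 ± 5.95 CPM (n = 4 each, edgeR log2 fold change 2.27 ± 0.53 SE, adjusted p = 0.0235; chromosome 2, 91082374 to 91115759). The call was lost without saline replicate 2, 3 or 4 and without replicate 2 of PPE week 1. Saline replicate 4 was the lowest of its group, and without it the adjusted p was 0.0583.

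Csf1r, the receptor of the macrophage growth factor CSF1, lay at 297, 359.5, 341 and 302 CPM in the saline libraries, 616, 681, 563 and 591 CPM in those of PPE week 1 and 196, 520.2, 171 and 516 CPM in those of PPE week 2. Adgre1, the adhesion receptor used as a pan-macrophage marker, lay at 136, 179, 141 and 139.6 CPM in the saline libraries, 303, 286, 249 and 266 CPM in those of PPE week 1 and 65.01, 234, 98.1 and 237 CPM in those of PPE week 2. In both, PPE week 1 was above saline without overlap, and both missed the threshold (edgeR log2 fold change 0.92 ± 0.32 SE, adjusted p = 0.116 for Csf1r; log2 fold change 0.89 ± 0.34 SE, adjusted p = 0.146 for Adgre1). Aif1, a calcium-binding protein of activated macrophages, had a log2 fold change of 1.44 ± 0.62 SE, with saline replicate 2 at 62.9 CPM against 15.1 to 26.00 CPM in the others.

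Receptors and the adaptors that carry their signals rose in 3 of 6 tested cases. Fcer1g and Tyrobp encode short membrane adaptors that pair with Fc receptors and with receptors of the TREM family and signal through tyrosine motifs. Fcer1g lay at 99.3, 114, 97.1 and 79.1 CPM in the saline libraries, 320.3, 417, 298 and 233 CPM in those of PPE week 1 and 71.7, 161, 42.5 and 159 CPM in those of PPE week 2. PPE week 1 stood above the other 8 libraries, and its mean of 317 ± 76.3 CPM was 3.26-fold the 97.3 ± 14.1 CPM of saline (n = 4 each, edgeR log2 fold change 1.70 ± 0.37 SE, adjusted p = 0.0186; chromosome 1, 171229572 to 171234349). Tyrobp lay at 88.5, 76.9, 79.7 and 60.3 CPM in the saline libraries, 189.8, 242, 174 and 179 CPM in those of PPE week 1 and 48.03, 117, 35.3 and 124 CPM in those of PPE week 2. It showed the same order of groups and a 2.57-fold rise (edgeR log2 fold change 1.36 ± 0.34 SE, adjusted p = 0.0315; chromosome 7, 30413782 to 30417582), which was called in only 4 of 12 leave-outs.

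Cd14, the co-receptor for bacterial lipopolysaccharide, was at 17.4, 15.9, 24.2 and 14.4 CPM in the saline libraries, 35.1, 82.3, 34.3 and 60.6 CPM in those of PPE week 1 and 16.7, 50.9, 15.6 and 41.4 CPM in those of PPE week 2. PPE week 1 did not overlap saline but did overlap PPE week 2 (edgeR log2 fold change 1.56 ± 0.40 SE, adjusted p = 0.0271), and the gene was called in 7 of 12 leave-outs. Fcgr3, a low-affinity Fc receptor whose sequence is close to that of Fcgr2b, was at 87.4, 89.8, 85.98 and 85.7 CPM in the saline libraries, 109.8, 184, 127 and 151 CPM in those of PPE week 1 and 33.4, 82.4, 33.98 and 104 CPM in those of PPE week 2. Its saline libraries lay within 85.7 to 89.8 CPM, and the difference at PPE week 1 did not pass (edgeR log2 fold change 0.71 ± 0.32 SE, adjusted p = 0.211). The high-affinity Fc receptor gene Fcgr1 (log2 fold change 1.91 ± 0.56 SE, adjusted p = 0.0672) and the adhesion receptor gene Cd84 (log2 fold change 1.18 ± 0.50 SE, adjusted p = 0.172) did not overlap saline either and missed the threshold.

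Among effectors, 1 of 4 tested genes passed, a chain of C1q, which tags debris for clearance. C1qc lay at 114, 103, 100.5 and 80.9 CPM in the saline libraries, 241, 298, 247 and 213 CPM in those of PPE week 1 and 74.1, 217, 82.8 and 245 CPM in those of PPE week 2. The 4 PPE week 1 libraries lay above saline, with PPE week 2 replicates 2 and 4 in their range (edgeR log2 fold change 1.33 ± 0.34 SE, adjusted p = 0.0367). C1qa (log2 fold change 1.37 ± 0.38 SE, adjusted p = 0.0547) and C1qb (log2 fold change 1.20 ± 0.35 SE, adjusted p = 0.0596) missed the threshold that C1qc passed, and C1qc itself was called in 4 of 12 leave-outs. Cybb, the catalytic chain of the phagocyte oxidase, was at 541 ± 78.1 against 197 ± 29.7 CPM (n = 4 each), without overlap and without a call (edgeR log2 fold change 1.46 ± 0.44 SE, adjusted p = 0.0720).

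The contrast of resident with recruited markers asks whether both kinds of macrophage gene moved alike. At PPE week 1 Ly6c2 rose, Ccr2 missed the threshold, and neither Mrc1 nor Lyve1 passed. Ly6c2, a surface protein of inflammatory monocytes, lay at 20.7, 21.8, 10.7 and 5.31 CPM in the saline libraries, 113, 166, 103 and 74.9 CPM in those of PPE week 1 and 15.3, 57.6, 9.19 and 59.5 CPM in those of PPE week 2. The lowest PPE week 1 library was 74.9 CPM and the highest saline library 21.8 CPM. Its rise was 7.78-fold (edgeR log2 fold change 2.96 ± 0.65 SE, adjusted p = 0.0220; chromosome 15, 75108161 to 75112066). Ly6c2 has a near-identical neighbour, Ly6c1, so that its count is uncertain.

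Ccr2, the receptor through which monocytes follow Ccl2, was at 171, 129, 192 and 157 CPM in the saline libraries, 326, 316, 301 and 321 CPM in those of PPE week 1 and 72.00, 224, 60.6 and 259 CPM in those of PPE week 2. All PPE week 1 libraries lay above all others, by 1.95-fold over saline in the fit (edgeR log2 fold change 0.96 ± 0.41 SE, adjusted p = 0.197). Its SD was 10.9 CPM at PPE week 1 and 102 CPM at PPE week 2 (n = 4 each).

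Mrc1, the mannose receptor, lay at 307, 451, 302 and 303 CPM in the saline libraries, 339, 337, 391 and 375 CPM in those of PPE week 1 and 222, 208, 210.3 and 354 CPM in those of PPE week 2. Saline and PPE week 1 overlapped, at 341 ± 73.8 and 361 ± 26.6 CPM (n = 4 each, edgeR log2 fold change 0.08 ± 0.17 SE, adjusted p = 0.859; chromosome 2, 14229414 to 14332023). Lyve1 was at 27.5, 39.8, 35.02 and 36.9 CPM in the saline libraries, 45.9, 21.7, 26.04 and 33.5 CPM in those of PPE week 1 and 31.3, 29.9, 24.3 and 25.98 CPM in those of PPE week 2. The 3 groups overlapped (edgeR log2 fold change -0.13 ± 0.24 SE, adjusted p = 0.834), and the sign of the small difference turned with scaling by library size only (log2 fold change 0.14) and with the ribosomal RNA covariate (0.20). Lymphatic endothelium also makes Lyve1. Of its 6 markers, Ccl21a, Mmrn1 and Reln were at 0 in each library, and the sum over all 6 was 66.00 to 119.8 CPM in the saline libraries, 107 to 138 CPM in those of PPE week 1 and 100.7 to 120.04 CPM in those of PPE week 2.

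In each library the mean log2 CPM of Ccr2 and Ly6c2, minus that of the 4 resident markers, was set against the saline mean. The saline libraries were at 0.51, 0.07, 0.04 and -0.62, those of PPE week 1 at 1.49, 2.50, 2.00 and 1.74 and those of PPE week 2 at -0.65, 1.55, -0.64 and 1.53 on the log2 scale. The PPE week 1 libraries all lay above saline. At PPE week 2, replicates 2 and 4 lay near the level of PPE week 1, and replicates 1 and 3 just below the lowest saline library. That small margin turned on the count added before taking logs, 2 here. With 5 added, replicate 1 of PPE week 2 lay above the lowest saline library. Folr2 had no count in any library and Cd163 only 10, so these resident markers enter the score mainly through the added count. The difference of group means was 1.93 at PPE week 1 and 0.45 at PPE week 2, beside SDs of 0.46 for saline, 0.43 for PPE week 1 and 1.26 for PPE week 2 (n = 4 each). It is given without a test, since the genes were chosen with earlier results known. With only the resident markers that could be tested, Mrc1 and Lyve1, replicates 1 and 3 of PPE week 2 lay within the saline range, and both differences were 2.07 and 0.74. With Ccr2 as the only recruited marker they were 0.87 and -0.25.

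**Figure D3:**
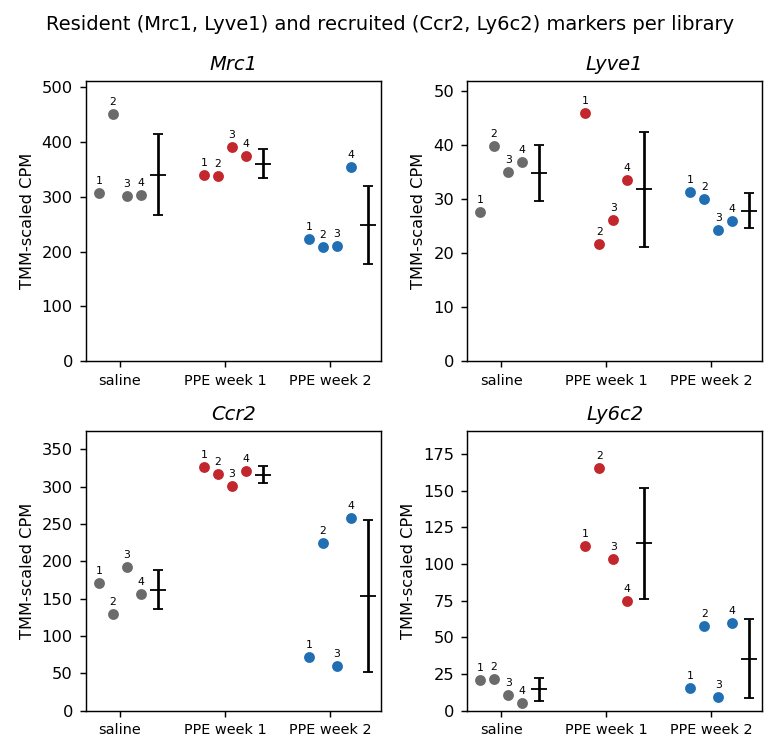
TMM-scaled CPM (vertical axes, from 0) of the resident markers Mrc1 and Lyve1 and the recruited markers Ccr2 and Ly6c2 in each library, with replicate numbers and the mean ± SD (n = 4). Mrc1 and Lyve1 overlap between saline and PPE week 1, whereas Ccr2 and Ly6c2 do not.

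Of the other monocyte genes, Cx3cr1, the fractalkine receptor of patrolling monocytes and many resident macrophages, lay at 58.1, 54.2, 104 and 61.1 CPM in the saline libraries, 146, 124.5, 133 and 139.6 CPM in those of PPE week 1 and 20.6, 158, 51.5 and 109.5 CPM in those of PPE week 2. PPE week 1 was above saline without overlap, although saline replicate 3 came near it (edgeR log2 fold change 0.97 ± 0.49 SE, adjusted p = 0.289). F13a1, the coagulation factor XIII chain of monocytes and macrophages, stayed under 3 CPM in every library (log2 fold change 0.22 ± 0.86 SE, adjusted p = 0.929).

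Genes shared by most leukocytes rose in 3 of 6 cases. Ptprc, the phosphatase CD45 on all leukocytes, was at 6.53, 11.8, 11.9 and 5.95 CPM in the saline libraries, 36.9, 29.2, 27.2 and 39.3 CPM in those of PPE week 1 and 5.97, 34.1, 10.8 and 31.6 CPM in those of PPE week 2. PPE week 1 lay above saline and overlapped PPE week 2 replicates 2 and 4, with a 3.68-fold rise over saline (edgeR log2 fold change 1.88 ± 0.46 SE, adjusted p = 0.0221). This accession is 1 of 3 of the gene, and both others had no count. Laptm5, a lysosomal protein of blood cells, was at 359.9, 356, 464 and 341 CPM in the saline libraries, 1178, 1152, 915 and 1089.7 CPM in those of PPE week 1 and 453, 988, 480.3 and 1134 CPM in those of PPE week 2. Each elastase library except PPE week 2 replicate 1 lay above the highest saline library (edgeR log2 fold change 1.51 ± 0.27 SE, adjusted p = 0.00684 at PPE week 1). Itgb2, the shared chain of the leukocyte integrins, was at 107, 167, 119 and 119 CPM in the saline libraries, 352, 406, 291 and 338 CPM in those of PPE week 1 and 146, 282, 86.7 and 277 CPM in those of PPE week 2. PPE week 1 stood above the other 8 libraries (edgeR log2 fold change 1.44 ± 0.32 SE, adjusted p = 0.0179). Plek, a signalling protein of platelets and leukocytes, was at 148, 103, 185 and 105 CPM in the saline libraries, 253, 402, 235 and 253 CPM in those of PPE week 1 and 68.4, 144, 68.9 and 165 CPM in those of PPE week 2. Its PPE week 1 libraries did not overlap the others and it missed the threshold (edgeR log2 fold change 1.08 ± 0.32 SE, adjusted p = 0.0573). The tetraspanin gene Cd53 (log2 fold change 1.63 ± 0.50 SE, adjusted p = 0.0737) and the actin-bundling gene Lcp1 (log2 fold change 1.63 ± 0.57 SE, adjusted p = 0.0930) did not pass.

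**Figure D4:**
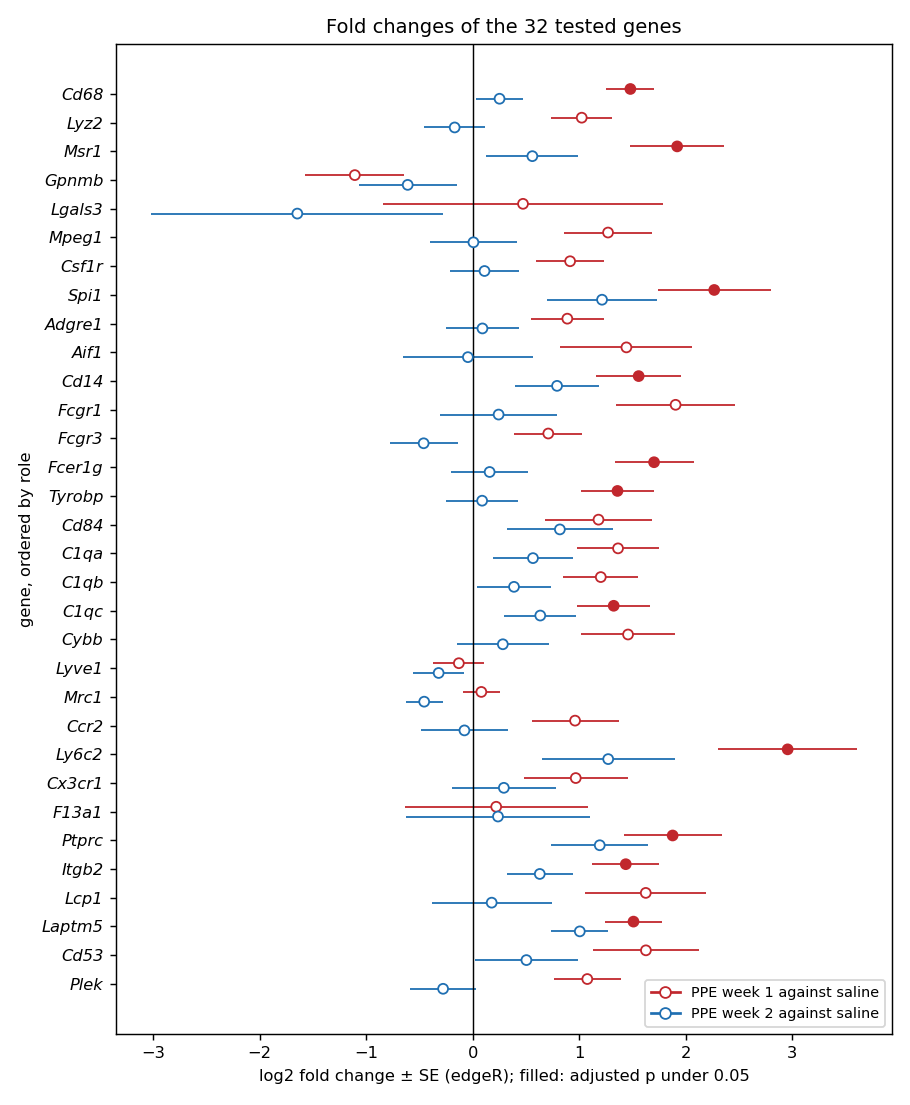
Log2 fold change ± SE (horizontal axis, edgeR) of the 32 tested genes (vertical axis, by role) at PPE week 1 (red) and PPE week 2 (blue) against the same 4 saline libraries, with filled points where the adjusted p was under 0.05. The 11 filled points are all red.

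At PPE week 2 against saline none of the 32 genes was called in either direction by edgeR, where 1.30% of all accessions were called higher and 1.35% lower. Without adjustment, p was under 0.05 for 3 higher genes, Spi1, Ptprc and Laptm5, and for 1 lower gene, Mrc1. DESeq2 called 1 higher, Laptm5, where 3.20% of its accessions were, and limma-voom called 0, where 0.862% were. The median log2 fold change was 0.24, beside 0.05 over all accessions. Fold changes were 1.01 ± 0.27 SE, adjusted p = 0.0704 for Laptm5, 1.27 ± 0.62 SE, adjusted p = 0.341 for Ly6c2 and -0.45 ± 0.17 SE, adjusted p = 0.184 for Mrc1 (log2, edgeR). They were -0.08 ± 0.41 SE, adjusted p = 0.959 for Ccr2 and -0.32 ± 0.24 SE, adjusted p = 0.565 for Lyve1. Scaling by total counts, under which the all-accession median was 0.54, called 6 genes (Ptprc, Spi1, Laptm5, Itgb2, Cd68 and Cd14) and 12.6% of all accessions higher, and turned the sign of Mrc1, Ccr2 and Lyve1. Dropping PPE week 2 replicate 1 gave calls for Ptprc and Laptm5, dropping replicate 3 gave calls for Laptm5 and Itgb2, and dropping replicate 4 gave Mrc1 as lower. Of all accessions, 1.64% were called higher without replicate 1, 1.38% higher without replicate 3 and 0.857% lower without replicate 4. These comparisons share the saline libraries with those of PPE week 1.

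In most of the 32 genes the 4 PPE week 2 aortas fell into 2 pairs, replicates 1 and 3 and replicates 2 and 4. Of the 32 genes, 24 lay above the highest saline library in PPE week 2 replicate 2 and 24 in replicate 4, against 1 in replicate 1 (Gpnmb) and 1 in replicate 3 (Laptm5). In the other direction, 18 genes lay below the lowest saline library in replicate 1, 23 in replicate 3, 3 in replicate 2 and 2 in replicate 4. Over all tested accessions the share above the highest saline library was 24.1 to 28.2% in these 4 libraries, and the share below the lowest 21.2 to 26.4%. Csf1r was thus at 196 and 171 CPM in replicates 1 and 3, and at 520.2 and 516 CPM in replicates 2 and 4. Mrc1, Lyve1 and Gpnmb did not share this order. Mrc1 was at 208 CPM in replicate 2, Lyve1 was higher in replicate 1 than in 2 or 4, and Gpnmb was lowest in replicates 2 and 4. The median coefficient of variation of the 32 genes was 58.5% at PPE week 2, 16.8% at PPE week 1 and 19.2% in saline. Over all tested accessions it was 40.3, 24.5 and 34.7%. Total counts and the ribosomal RNA share did not follow that split, with shares of 22.1, 19.5, 20.1 and 20.1% in replicates 1 to 4. Summed levels of 4 of the 5 lists of other leukocytes followed it. Neutrophil genes were at 4.66, 33.9, 4.03 and 31.3 CPM, genes of T and natural killer cells at 29.01, 168, 30.8 and 157 CPM, B and plasma cell genes at 25.00, 66.7, 27.8 and 45.4 CPM and dendritic cell genes at 109, 242, 91.6 and 259 CPM in replicates 1 to 4, each higher in replicates 2 and 4 than in 1 and 3. Mast cell genes did not follow it, at 55.1, 19.8, 6.39 and 14.5 CPM. Fibroblast genes, at 49258, 38898, 55902 and 37949.7 CPM, and adipocyte genes, at 2384, 181, 1055 and 776 CPM, had the reverse order, lower in replicates 2 and 4 than in 1 and 3. The adipocyte sum was mostly Fabp4 and does not stand for each gene of its list. Smooth muscle genes, at 5754, 6085, 10854 and 4797 CPM, and genes of blood endothelium, at 1184, 755, 707 and 725 CPM, had neither order. The part of these cells in the split was not tested.

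**Figure D5:**
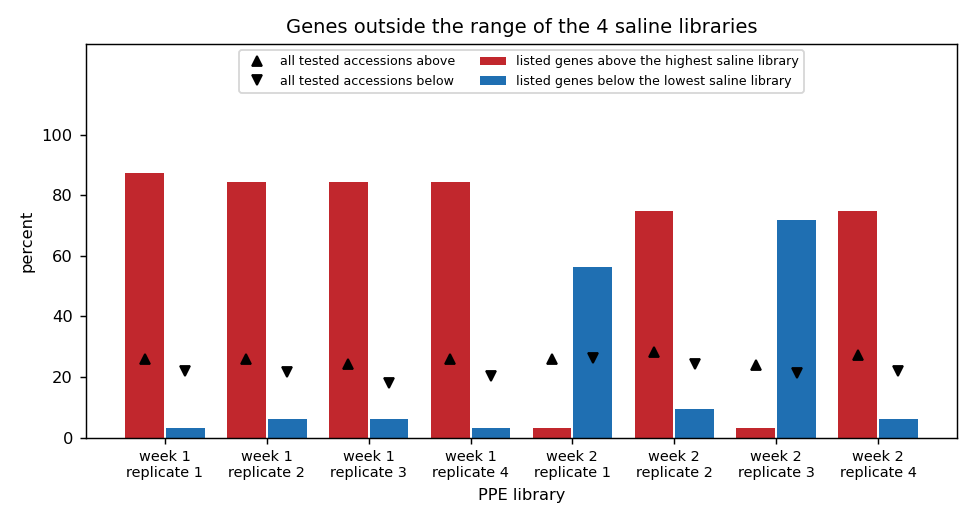
For each of the 8 elastase libraries (horizontal axis), the percentage of the 32 tested genes above the highest (red bar) or below the lowest (blue bar) of the 4 saline libraries, with triangles for the same percentages over all 12756 tested accessions. The 4 PPE week 1 libraries hold 27 or 28 genes above saline, while PPE week 2 holds 24 in replicates 2 and 4 and 1 in replicates 1 and 3.

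Between the weeks, which tests the change from PPE week 1 to PPE week 2 itself, 6 genes fell and 0 rose (edgeR), against 2.82% of all accessions called lower and 3.77% called higher. Without adjustment, p was under 0.05 for 20 lower genes and 0 higher ones. DESeq2 called 15 lower and limma-voom 11, and neither called one higher. All PPE week 2 libraries lay below all PPE week 1 libraries in 20 of 32 genes, against 8.68% of accessions. The falls were 2.34-fold for Cd68 (log2 fold change -1.23 ± 0.22 SE, adjusted p = 0.00403), 2.92-fold for Fcer1g (log2 fold change -1.54 ± 0.37 SE, adjusted p = 0.0309) and 2.56-fold for Plek (log2 fold change -1.35 ± 0.32 SE, adjusted p = 0.0265). For Tyrobp the log2 fold change was -1.27 ± 0.34 SE, adjusted p = 0.0455, for Lyz2 it was -1.19 ± 0.29 SE, adjusted p = 0.0324 and for Fcgr3 it was -1.17 ± 0.32 SE, adjusted p = 0.0463. The Lyz2, Plek and Fcgr3 falls concern genes that had not passed against saline at PPE week 1. Mrc1 did not pass (log2 fold change -0.54 ± 0.17 SE, adjusted p = 0.0754), although its PPE week 2 replicates 1 to 3 lay below all other libraries. Dropping replicate 1 or 2 of PPE week 1, or replicate 1 of PPE week 2, left 1 call, and dropping replicate 3 of either week left 2. Dropping replicate 4 of PPE week 1 left 3, whereas 12 were called when replicate 4 of PPE week 2 was dropped. Over all accessions the share called lower ran from 0.837% without replicate 2 of PPE week 1 to 4.60% without replicate 4 of PPE week 2. Only Cd68 was called in each of the 12 leave-outs.

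Other genes of the same pathways were read from lists chosen by name. Some passed the low-count filter only with the elastase libraries, so counts and medians of these lists are descriptions. Ligands and receptors of macrophage growth and monocyte recruitment rose in 5 of 15 tested cases at PPE week 1 and fell in 0 (median 1.53, 12 of the 15 passing the filter on saline alone), with 0 called at PPE week 2 against saline or between the weeks. Csf2ra, a chain of the GM-CSF receptor, had a log2 fold change 1.53 ± 0.28 SE, adjusted p = 0.00391 (edgeR), and its partner chain Csf2rb 1.47 ± 0.40 SE, adjusted p = 0.0465. Ccl3 (3.12 ± 0.79 SE, adjusted p = 0.0271) and Ccl5 (2.61 ± 0.67 SE, adjusted p = 0.0366), ligands that attract monocytes and T cells, and the complement receptor gene C3ar1 (1.59 ± 0.41 SE, adjusted p = 0.0369) also rose. In the 12 leave-outs Csf2ra was called 12 times, Ccl3 7, Ccl5 and C3ar1 4 each and Csf2rb 3. Ccl3 did not pass the filter on saline alone. The growth factor gene Il34 was not tested. Of further receptors, kinases and partners that signal with Tyrobp and Fcer1g or through like motifs, 3 of 13 tested rose, 8 of the 13 passed the filter on saline alone, and 7 of the 20 on the list were at 0 in every library. Plcg2, a phospholipase of this pathway, rose (1.39 ± 0.30 SE, adjusted p = 0.0141), as did the Fc receptor gene Fcgr4 (2.03 ± 0.51 SE, adjusted p = 0.0315), which fell again by PPE week 2 (-2.04 ± 0.51 SE, adjusted p = 0.0345). Trem3, a receptor that pairs with Tyrobp, had 29, 29, 12 and 67 counts in the PPE week 1 libraries and 0 in all 8 others. With the groups at 0 set to 3 counts over their 4 libraries, it was 35.4-fold higher than in saline and 48.97-fold higher than at PPE week 2. These folds rest on that setting, which leaves out the spread between animals, and are not firm lower limits. Trem3 was tested only because of the PPE week 1 libraries, so it had to be higher there. At PPE week 1 Plcg2 was called in 11 of 12 leave-outs, Trem3 in 7 and Fcgr4 in 4. Between the weeks Trem3 was called in 8 of 12 and Fcgr4 in only 3.

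Further subunits of the phagocyte oxidase rose in 2 of 4 tested cases at PPE week 1, with Rac2 at 2.05 ± 0.46 SE, adjusted p = 0.0209 and Cyba at 1.33 ± 0.39 SE, adjusted p = 0.0460 (log2, edgeR). Rac2 was called in 7 of 12 leave-outs and Cyba in 4. Ncf4 (1.46 ± 0.44 SE, adjusted p = 0.0611) did not pass. Among 11 tested transcription factors of the myeloid lineage 1 rose and 1 fell. These were Bach1, a repressor of haem oxygenase (0.95 ± 0.22 SE, adjusted p = 0.0143), and Klf4 (-0.91 ± 0.22 SE, adjusted p = 0.0170), which smooth muscle and endothelium also express. They were called in 10 and 8 of 12 leave-outs. Other monocyte genes rose in 2 of 15 tested cases (median 2.25, 10 of the 15 passing the filter on saline alone), Ms4a6c (2.25 ± 0.54 SE, adjusted p = 0.0308) and Spn (2.19 ± 0.58 SE, adjusted p = 0.0373), while Plac8 did not pass (2.27 ± 0.62 SE, adjusted p = 0.0505). Ms4a6c and Spn were called in 5 of 12 leave-outs each.

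Other genes of resident macrophages had a median of 0.11 at PPE week 1, with 1 of 10 tested risen and 1 fallen. Siglec1, the sialoadhesin of macrophages, was at 79.6, 59.00, 33.97 and 52.8 CPM in the saline libraries, 220.5, 286, 228 and 188 CPM in those of PPE week 1 and 47.5, 171, 62.6 and 198 CPM in those of PPE week 2, and rose (log2 fold change 2.03 ± 0.44 SE, adjusted p = 0.0201, edgeR). The PPE week 1 libraries lay above saline without overlap, and 7 of 12 leave-outs kept the call. Cbr2, a carbonyl reductase found in resident macrophages of several tissues, was at 53.5, 59.3, 41.4 and 50.1 CPM in the saline libraries, 12.7, 18.5, 24.2 and 21.95 CPM in those of PPE week 1 and 50.6, 28.6, 54.7 and 33.3 CPM in those of PPE week 2. It fell at PPE week 1 (log2 fold change -1.40 ± 0.25 SE, adjusted p = 0.00391), in 12 of 12 leave-outs, and rose again by PPE week 2 (log2 fold change 1.11 ± 0.25 SE, adjusted p = 0.0151, edgeR). That rise was called in 9 of 12 leave-outs. Gas6, a bridging ligand for the uptake of dying cells, rose at PPE week 2 against saline (log2 fold change 0.50 ± 0.13 SE, adjusted p = 0.0433), which was called in 3 of 12 leave-outs. Stab1, a scavenger receptor, did not pass at PPE week 1 (log2 fold change 0.39 ± 0.13 SE, adjusted p = 0.0856).

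Markers of other cells also differed between the groups. Neutrophils share Cd14, Fcer1g, Tyrobp, Itgb2, Spi1 and Fcgr3 with macrophages. Of 12 neutrophil genes 6 were tested, 1 of which passed the filter on saline alone, and 0 were called at PPE week 1. S100a9 was at 0 in every library, and the sum over the list was 12.2 to 26.8 CPM in the saline libraries, 61.8 to 192 CPM in those of PPE week 1 and 4.03 to 33.9 CPM in those of PPE week 2. Of 14 genes of T and natural killer cells, which share Ptprc, Itgb2, Cd53, Lcp1 and Laptm5, 10 were tested and 3 of these passed the filter on saline alone. At PPE week 1 Cd3g, Ncr1 and Gzma rose, and of these Cd3g did not pass the filter on saline alone. Their sum was 21.4 to 48.8 CPM in the saline libraries, 151 to 217 CPM in those of PPE week 1 and 29.01 to 168 CPM in those of PPE week 2. For B and plasma cells the sum was 15.05 to 22.2 CPM in the saline libraries, 13.1 to 49.3 CPM in those of PPE week 1 and 25.00 to 66.7 CPM in those of PPE week 2, with 0 of 6 called. Dendritic cell genes had 0 of 7 called at PPE week 1 and summed to 133 to 154 CPM in the saline libraries, 214 to 261 CPM in those of PPE week 1 and 91.6 to 259 CPM in those of PPE week 2. Smooth muscle genes fell in 6 of 8 cases at PPE week 1 and none was called at PPE week 2 against saline, and their sum was 5781 to 7648 CPM in the saline libraries, 1643 to 3075 CPM in those of PPE week 1 and 4797 to 10854 CPM in those of PPE week 2. Fibroblast genes fell in 4 of 7 tested cases at PPE week 1 (Dpt, Dcn, Lum and Pi16) and in 3 at PPE week 2 against saline (Dpt, Dcn and Lum), while the sum over the list was 42533 to 55001 CPM in the saline libraries, 51012 to 66794 CPM in those of PPE week 1 and 37949.7 to 55902 CPM in those of PPE week 2. Adipocyte genes summed to 615 to 1773 CPM in the saline libraries, 283 to 542 CPM in those of PPE week 1 and 181 to 2384 CPM in those of PPE week 2, with 0 of 5 called. At PPE week 1 none of 4 tested mast cell genes and none of 5 tested genes of blood endothelium was called. The part of each of these cells in the levels of the shared genes was not tested.

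The start of each gene was searched for the core of the PU.1 binding motif, since Spi1 and its family target many myeloid genes. The window ran from 250 bases before to 50 after the start (RefSeq, GRCm38.p6), and the motif was GAGGAA or, on the other strand, TTCCTC. The promoter table held 29 of the 38 genes, of which 18 (62.1%) had at least 1 match, against 31.3% of 27025 genes. By promoter, 21 of 36 windows of the listed genes held it, against 28.3% of 32851. Of the 11 genes that rose at PPE week 1, 6 had a window and 5 of these held the motif. A match is a description of the letters and not a binding site, and no test was made. Whether the motif has a part in the rise at PPE week 1 was not tested. The windows of the 4 risen genes with a match and the lowest adjusted p are shown 5′ to 3′ in the sense of the gene, with the motif in capitals, to show where it stands. Cd68 has 2 matches (GRCm38.p6, chr11:69666121-69666420, minus strand), Laptm5 1 (chr4:130913066-130913365, plus strand), Ly6c2 2 (chr15:75111922-75112221, minus strand) and Ptprc 1 (chr1:138175256-138175555, minus strand).
Cd68 promoter: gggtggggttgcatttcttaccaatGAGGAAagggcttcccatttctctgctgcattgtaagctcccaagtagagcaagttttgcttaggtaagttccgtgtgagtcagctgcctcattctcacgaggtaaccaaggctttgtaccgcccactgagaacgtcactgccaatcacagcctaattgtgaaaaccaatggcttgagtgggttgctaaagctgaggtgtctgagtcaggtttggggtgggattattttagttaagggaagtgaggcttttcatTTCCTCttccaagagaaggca
Laptm5 promoter: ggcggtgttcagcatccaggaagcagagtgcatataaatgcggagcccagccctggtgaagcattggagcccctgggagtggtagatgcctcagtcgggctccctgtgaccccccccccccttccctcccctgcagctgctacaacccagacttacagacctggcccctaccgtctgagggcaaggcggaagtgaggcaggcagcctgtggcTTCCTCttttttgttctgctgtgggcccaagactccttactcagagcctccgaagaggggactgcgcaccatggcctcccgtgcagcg
Ly6c2 promoter: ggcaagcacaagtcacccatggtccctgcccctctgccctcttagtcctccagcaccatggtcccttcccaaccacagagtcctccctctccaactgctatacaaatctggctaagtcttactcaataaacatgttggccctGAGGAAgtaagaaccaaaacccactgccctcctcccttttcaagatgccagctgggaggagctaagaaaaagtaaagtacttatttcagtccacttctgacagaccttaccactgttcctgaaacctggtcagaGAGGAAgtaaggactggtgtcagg
Ptprc promoter: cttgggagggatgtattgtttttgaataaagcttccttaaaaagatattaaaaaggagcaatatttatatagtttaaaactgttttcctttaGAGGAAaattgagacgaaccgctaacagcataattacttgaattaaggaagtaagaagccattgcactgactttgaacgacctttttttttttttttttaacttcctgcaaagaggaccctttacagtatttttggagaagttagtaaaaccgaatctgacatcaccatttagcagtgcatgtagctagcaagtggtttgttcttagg

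The authors' deposited table for PPE week 1 against control listed 33 of the accessions used here, and called 27 higher and 1 lower at an adjusted p under 0.05, where 9.23% of its 13810 accessions were higher. The gene lower in the authors' deposited table was Gpnmb, with a log2 fold change of -1.10 (adjusted p = 8.43e-11). In the authors' deposited table Ly6c2 stood at 2.48 (adjusted p = 5.57e-08), Ccr2 at 0.93 (adjusted p = 6.09e-11) and Mrc1 at 0.06 (adjusted p = 0.853). For PPE week 2 the authors' deposited table listed 29 and called 1 higher, Laptm5, with a log2 fold change of 0.89 (adjusted p = 0.0176), where 2.20% of its 9917 accessions were higher. The edgeR fit of all 12 libraries called 11 higher and 0 lower at PPE week 1, and 0 at PPE week 2 against saline. Genes called in the authors' deposited table but not in that fit thus included Ccr2, Gpnmb and, at PPE week 2, Laptm5. The submitters' notes name DESeq2, a different tool. An edgeR fit of only the 8 libraries of the PPE week 1 comparison called 27 genes higher and 1 lower, Gpnmb. DESeq2 on all 12 libraries called Laptm5 higher at PPE week 2.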

How the data were processed

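Aortic RNA from 12 mice was sequenced in 3 groups of 4. The authors deposited a table of raw counts, with a line for each RefSeq accession, and their own log2 fold changes, p-values and adjusted p-values against control at each week, per the file headers. Per the submitters' processing notes, bcl2fastq and DESeq2 were used with mm10. Which aligner, counter and annotation were used is not given in the sources, and the labels' kit does not record strand. RefSeq's table (GRCm38.p6) named 34419 of 34755 accessions and GENCODE M21 a further 197. The accession with the highest mean CPM stood for each gene.

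Counts were filtered with filterByExpr (12756 accessions left), scaled by TMM and fitted over all 12 libraries with edgeR 4.0.16 in R 4.3.3 (quasi-likelihood, robust, two-sided, Benjamini-Hochberg over all accessions, threshold 0.05). Standard errors are the log2 fold change over the root of F. Log2 CPM used a prior count of 2. DESeq2 1.42.0, limma 3.58.1 (voom), other scalings, filters, halved counts and leave-outs were alternatives. Among counts of 2 to 20, 66.0 to 75.6% per library were even. The reason was not tested, so small counts may not be numbers of separate fragments. With counts halved, 11217 accessions were tested and 4.89% were called higher at PPE week 1. The median log2 fold change of the listed genes in that fit was 1.35. The procedure was tested on simulated data. No replicate pair agreed within sampling noise (chi-square per accession 15.5 to 96.2). SDs are over animals. The genes and lists were chosen with earlier results of these data known. Genes given with values per library were the 6 resident and recruited markers, every gene called in any comparison, and Adgre1, Csf1r, Itgam, Cx3cr1 and Ptprc. From each pathway list the called genes were named, up to 5, with up to 2 uncalled of high level.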

Additional observations from a re-analysis of the deposited data

Results flagged for a closer look

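By Dixon's gap criterion at the 95% level, single libraries stood apart from the other 3 of their group in 10 of the 99 sets of 4 values examined (32 genes and the difference between recruited and resident markers, in 3 groups). Chance alone picks about 1 in 20 such sets. In saline replicate 2 the highest value of its group was that of Lyz2 (1075 CPM, others 909 to 935), Adgre1 (179 CPM, others 136 to 141) and Mrc1 (451 CPM, others 302 to 307). Saline replicate 4 had the lowest value for Spi1 (5.44 CPM, others 15.9 to 18.02). In PPE week 1 replicate 2 the highest value of its group was that of Aif1 (112 CPM, others 72.6 to 77.7), Cybb (658 CPM, others 494 to 511) and Plek (402 CPM, others 235 to 253). PPE week 2 replicate 4 had the highest value for Mrc1 (354 CPM, others 208 to 222). In saline replicate 3 the highest value of its group was that of Cx3cr1 (104 CPM, others 54.2 to 61.1) and Laptm5 (464 CPM, others 341 to 359.9).

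The change against saline differed between the elastase weeks by the test of PPE week 2 against PPE week 1 (edgeR, adjusted over all accessions) in the following genes, given as the log2 difference with the values against saline at week 1 and week 2. These were Cd68 (-1.23, from 1.48 to 0.25, adjusted p = 0.00403), Lyz2 (-1.19, from 1.03 to -0.17, adjusted p = 0.0324) and Fcgr3 (-1.17, from 0.71 to -0.46, adjusted p = 0.0463). The same held for Fcer1g (-1.54, from 1.70 to 0.16, adjusted p = 0.0309), Tyrobp (-1.27, from 1.36 to 0.09, adjusted p = 0.0455) and Plek (-1.35, from 1.08 to -0.28, adjusted p = 0.0265). In the 12 leave-outs these calls were kept 12 times for Cd68, 8 for Fcer1g and Plek, 6 for Lyz2 and 2 for Fcgr3 and Tyrobp. None was kept with the ribosomal RNA covariate. Outside the list the change differed for Cbr2 (1.11, from -1.40 to -0.29, adjusted p = 0.0151) and Fcgr4 (-2.04, from 2.03 to -0.00384, adjusted p = 0.0345). Trem3 met it as well, but was tested only because of the PPE week 1 libraries, so it had to be lower at PPE week 2. Its fitted difference of -8.12 depends on the prior count, since 8 libraries are at 0.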

How the results depend on the processing

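The number of genes higher at PPE week 1 (11) was 5 without a low-count filter, 19 with scaling by library size only, 23 with DESeq2, 1 with the ribosomal RNA share as a covariate and 27 in a fit of the 8 libraries alone, which also called 1 lower. The share of all accessions called higher was 3.98% in the reported fit and, in the same order, 2.10, 8.11, 7.58, 0.180 and 9.55%. Library size scaling moved the median of all accessions by 0.28 at PPE week 1, and that of the 32 genes to 1.62. The recruited minus resident difference was 0.87 with Ccr2 alone. At PPE week 2 against saline, 6 genes were higher by library size only and 1 with DESeq2, beside 12.6 and 3.20% of all accessions. The number lower at PPE week 2 than at week 1 (6) was 3 without a filter, 1 by library size only, 3 by library size without the ribosomal RNA precursor, 15 with DESeq2, 11 with limma-voom, 0 with the covariate and 2 in the fit of 8 libraries, beside shares of all accessions of 2.82% in the reported fit and 1.83, 0.588, 2.18, 6.71, 4.76, 0.118 and 1.51% in these. The cause was not tested. Leaving out 1 library gave 2 to 19 higher at PPE week 1, 0 to 2 higher and 0 to 1 lower at PPE week 2 against saline, and 1 to 12 lower between the weeks. The median over the 32 genes was then 1.24 to 1.40, -0.06 to 0.44 and -1.39 to -0.79 in the 3 comparisons.

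Small uncalled log2 differences changed sign. At PPE week 1 Lyve1 was 0.142 by library size only and 0.205 with the covariate, and -0.357 to 0.0149 over the leave-outs. At PPE week 2 against saline Csf1r was -0.0479 with limma-voom, -0.0146 with the replicate block and -0.139 to 0.337 over the leave-outs, Adgre1 in the same order -0.0758, -0.0269 and -0.172 to 0.349. By library size only, Lyve1 was 0.187 (0.341 with the covariate), Mrc1 0.0658 and Ccr2 0.428. Ccr2 ran from -0.453 to 0.187 over the leave-outs, above 0 when saline replicate 3 or replicate 1 or 3 of PPE week 2 was dropped. Cx3cr1 was -0.000809 with limma-voom and -0.192 to 0.615 over the leave-outs. Between the weeks Lyve1 was 0.0448 by library size only, 0.136 with the covariate and -0.340 to 0.0341 over the leave-outs.

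Replicate numbers did not pair the libraries: deviations of same-numbered libraries from their group means correlated at -0.0881 to 0.0353 in 12 pairs, and 0 of 12 libraries correlated best with their own number. With the replicate block 10 genes were higher at PPE week 1, beside 3.28% of all accessions, and 0 at PPE week 2, beside 0.713%. Between the weeks 6 were lower, beside 2.59%. The medians were, in the same order, 1.32, 0.0913 and -1.18. The genes were not all those of the reported fit. Spi1, Tyrobp and C1qc lost their call at PPE week 1, and Tyrobp and Plek between the weeks. The use of only Mrc1 and Lyve1 as resident markers was chosen after seeing the data.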

Other observations

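Gpnmb, chosen here after its values were seen, was lower in PPE week 2 replicates 2 and 4 than in 1 and 3. Beside its 437, 90.9, 296 and 88.4 CPM in replicates 1 to 4, the adipocyte gene Fabp4 was at 1979.7, 124, 787 and 611 CPM and Adipoq at 401, 56.6, 259.7 and 159 CPM in the same libraries. In saline Gpnmb was at 319.6, 398, 346 and 328 CPM and Fabp4 at 1388, 584, 520.1 and 822 CPM. Irf4, a transcription factor of dendritic and other immune cells, was at 18.02, 6.56, 4.83 and 16.8 CPM in saline and 25.2, 34.4, 35.6 and 30.3 CPM at PPE week 2, and was the 1 gene of the 7 tested dendritic cell genes called higher there (edgeR). All 4 PPE week 2 libraries lay above all 4 saline libraries in Irf4, with no split between replicates like that of Csf1r.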
